A study of Rattus norvegicus with 8 samples.

Results

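Translation initiation factors are the proteins that bring the initiator tRNA, the small ribosomal subunit and an mRNA together and set the ribosome on a start codon. The genes described here were every gene whose array name begins with Eif followed by a digit from 1 to 6, which gave 53 of 36306 gene names, on 82 of the 45598 probes. Their mRNA levels come from NR8383, a line of rat alveolar macrophages first grown out of the lung lavage of a healthy animal. In the NM401 group, 4 cultures were kept for 4 h with NM401, a multi-walled carbon nanotube, at 0.17 µg/mL, and in the control group 4 cultures were kept for 4 h without it. Both groups were without fetal bovine serum during those 4 h, so a difference between them is a difference on top of serum withdrawal. The labels call the 4 samples of a group biological replicates and do not say how the cultures were kept apart, so the p-values measure the spread between these samples. The cells are a single cell line, and the labels give 1 dose and 1 time. In such bulk RNA, fewer cells of a kind and less RNA per cell cannot be told apart.

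Initiation begins when eIF2, loaded with GTP, delivers the initiator tRNA to the small ribosomal subunit, to which eIF1, eIF1A, eIF3 and eIF5 are bound. The eIF4 group binds the cap of the mRNA, unwinds its leader and joins it to eIF3, after which the complex scans for a start codon. Cells slow this process at 2 well-known points: kinases that phosphorylate the alpha subunit of eIF2 and thereby block its exchange factor eIF2B, and 4E-binding proteins that hold the cap-binding factor eIF4E away from its scaffold until mTOR phosphorylates them. Macrophages use both controls when they meet microbes, particles or a lack of nutrients. mRNA levels do not show whether any of these proteins was phosphorylated.

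The measurements rest on 60-base probes, of which 6 are shown in full for genes described below. For Eif3k and Eif5 the probe shown is not the brightest one, which gave the values on every array. They are from the array files, 5′ to 3′ in the sense of the mRNA, and the number after each gene is the base of the transcript at which the probe starts. No part is in capitals because no base in them is singled out.
Eif3f, base 969: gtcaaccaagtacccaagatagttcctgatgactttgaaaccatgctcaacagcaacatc
Eif3k, base 118: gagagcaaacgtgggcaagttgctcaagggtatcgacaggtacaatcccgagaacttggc
Eif3i, base 856: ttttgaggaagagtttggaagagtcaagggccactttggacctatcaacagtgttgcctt
Eif3j, base 642: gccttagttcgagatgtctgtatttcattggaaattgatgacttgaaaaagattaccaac
Eif2s2, base 239: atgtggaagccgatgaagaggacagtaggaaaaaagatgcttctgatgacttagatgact
Eif5, base 1042: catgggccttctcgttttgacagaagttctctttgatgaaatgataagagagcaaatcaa
Only probes that can be read in at least 1 frame without a stop codon were printed, so this property of the 6 follows from the choice.

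Stretches around the transcription start are shown for 6 of the changed genes, from RefSeq's annotation of the rat build GRCr8. Capitals mark the letters that were searched for on both strands. In the first 3, the genes of eIF3 subunits that fell most, the letters are CTTCCG or its complement CGGAAG, the core that ETS family factors are known to bind, a search added after the sequences had been seen. The window of Eif2s2 holds TGATGNAA, the core of the amino acid response element that ATF4 is known to bind, and those of Eif4e and Eif1b hold the E-box CACGTG, which MYC and TFE family factors are known to bind.
Eif3i, chr5:147226881-147226950, minus strand: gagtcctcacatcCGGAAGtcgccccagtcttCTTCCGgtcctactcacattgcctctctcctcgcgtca
Eif3k, chr1:93397458-93397527, minus strand: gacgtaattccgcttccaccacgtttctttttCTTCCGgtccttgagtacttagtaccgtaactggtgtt
Eif3f, chr1:172369022-172369091, plus strand: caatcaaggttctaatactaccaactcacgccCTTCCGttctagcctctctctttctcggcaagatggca
Eif2s2, chr3:163855561-163855630, minus strand: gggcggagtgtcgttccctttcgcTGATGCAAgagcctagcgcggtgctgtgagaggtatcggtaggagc
Eif4e, chr2:229740653-229740762, plus strand: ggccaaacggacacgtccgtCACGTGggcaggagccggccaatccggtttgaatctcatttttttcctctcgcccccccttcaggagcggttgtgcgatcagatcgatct
Eif1b, chr8:129081088-129081167, plus strand: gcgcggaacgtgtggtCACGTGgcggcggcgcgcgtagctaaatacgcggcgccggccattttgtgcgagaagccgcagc
In Eif3i, Eif3k and Eif3f the CTTCCG in capitals on the coding strand began 8 bases before the annotated start.

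A promoter, most of it before the annotated start, was available for 45 of the member genes. CTTCCG was present on either strand in 28 of them (62.2%), against 16.62% of all 33469 promoters of the same length, and in 4 of the 11 promoters of genes that rose and 10 of the 14 of genes that fell. CACGTG was present in 7 (15.6%: Eif1b, Eif3a, Eif3b, Eif3f, Eif4e, Eif4h and Eif5a), against 6.42% of all promoters. TGATGNAA was present in 2 (4.4%: Eif2s2 and Eif3g), against 3.98% of all. A C at the start followed by at least 4 pyrimidines, the form of a terminal oligopyrimidine mRNA, was annotated for 1 (2.2%: Eif2a), against 2.63% of all. Only the annotated start base was read, so a start annotated some bases away would be missed. How exactly these starts are placed was not tested. Such matches describe these windows only and are not binding sites that were measured.

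The arrays held 62976 spots each, and 51.7% to 58.0% of the spots that are not controls were well above background. Of the 14 macrophage markers on the array, 11 were well above background on all 8 arrays and Marco and Cd163 on none. None of the 9 epithelial markers was well above background on all 8 arrays. The summed macrophage markers lay at 7.47 to 7.56 on NM401 arrays and 7.54 to 7.60 on control arrays, on a log2 scale relative to each array's 75th percentile, a sum that its brightest member Lyz2 dominates. Single macrophage markers did move: of 12 tested, 4 were called higher (Msr1 1.06, Adgre1 1.49, Spi1 0.56 and Tyrobp 0.35) and 4 lower (Mrc1 -0.59, Cd68 -0.36, Ctss -0.34 and Lyz2 -0.16). Adgre1 was well above background on 4 NM401 arrays and 1 control array. It entered the test through the group in which it was higher, so its call and size carry little weight. Over all 17424 genes the shares called were 21.9% higher and 35.4% lower. The epithelial sum was -5.05 to -3.61 on NM401 arrays and -3.93 to -3.51 on control arrays, and the lymphocyte sum, in which only Cd3d of 5 markers was well above background on all arrays, was -3.94 to -3.04 on NM401 arrays and -3.26 to -2.76 on control arrays. The sums of 2 other lists were lower with NM401 without overlap: 6 of fibroblasts and endothelium (3 well above background on all arrays, 3 on none) at -0.76 to -0.51 on NM401 arrays and -0.40 to -0.30 on control arrays, and 6 of neutrophils (1 on all arrays, 2 on none) at -1.67 to -1.18 on NM401 arrays and -1.10 to -0.61 on control arrays. Their brightest members dominate these sums too. Pecam1 was not called (-0.09) and Camp was called lower (-0.49), both with groups that overlapped. The other tested markers of these lists, Col1a2, Cdh5, Mpo and S100a8, were called lower. Mpo was well above background on 0 NM401 and 4 control arrays, and S100a8 on 1 and 3. Mpo and S100a8 thus entered the test mainly through the group in which they were higher, so their calls carry little weight. Array brightness differed between the groups: the 75th percentile of the processed signal averaged 2692 ± 172 on NM401 arrays and 1236 ± 224 on control arrays (SD, n = 4 each; exact permutation test, two-sided, p = 0.0286, the smallest that 4 against 4 can give). On the scaled values, the 7 spike-in probes well above background on all arrays were 2.39 log2 units lower at the median on NM401 arrays. Slide 1 carried the 4 control arrays and NM401 replicate 1, and slide 2 the other 3 NM401 arrays. The row of the slide and the group cannot be told apart. The part that these markers, brightness, row or spike-in amounts had in the results was not tested, and values with the slide as a block are given beside the genes described.

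All values below are log2 of the processed signal minus the array's 75th percentile, and a difference is the NM401 mean minus the control mean, ± the standard error (SE) that limma gives. A gene was called higher or lower at a Benjamini-Hochberg adjusted p below 0.05 over all 21660 probes tested, and each gene was represented by its brightest tested probe. Of the 53 genes, 51 passed the filter, each well above background on all 8 arrays. Eif5a2 and Eif2s3y, the Y-linked copy of the eIF2 gamma gene, were not well above background on any array and have no value. The probes of 33 of the 51 genes were above the 75th percentile of all genes by signal, which depends on the probe as well as on the mRNA.

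With NM401, 11 initiation factor genes rose, 16 fell and 24 were not called. Of all 17424 genes, 57.3% were called, 21.9% higher and 35.4% lower. Of the 4356 genes above the 75th percentile of signal, 18.0% were called higher and 46.3% lower. The 4 NM401 values and the 4 control values did not overlap in 30 of the 51 genes, against 53.2% of all genes. By the brightest probe of each gene the changes were small: 3 genes rose and 3 fell by 1.5-fold or more, against 7.05% and 15.2% of all genes. These differences ran between -0.83 and 0.69, while other probes of the same genes reached -1.38 (Eif3i) and 1.06 (Eif1a). The median over the 51 genes was -0.02, against -0.10 over all genes. The balance of directions depends on the scaling. Of all calls, 38.3% were higher under the 75th percentile, 49.5% under quantile normalisation, 64.6% under median scaling and 22.6% after normexp background correction, and the count of initiation factor genes was 16 higher and 11 lower under quantile normalisation and 21 higher and 5 lower under median scaling. With the slide as a block 5 genes were called higher and 11 lower, where the difference rests on NM401 replicate 1 against the 4 controls. Slide 1 alone gives the same differences from that single NM401 array, with 1 gene called higher (Eif3j, adjusted p = 0.0377) and 2 lower (Eif3f, adjusted p = 0.0357, and Eif4ebp2, adjusted p = 0.0347), on the assumption that the lone array varies like the controls.

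**Figure D1:**
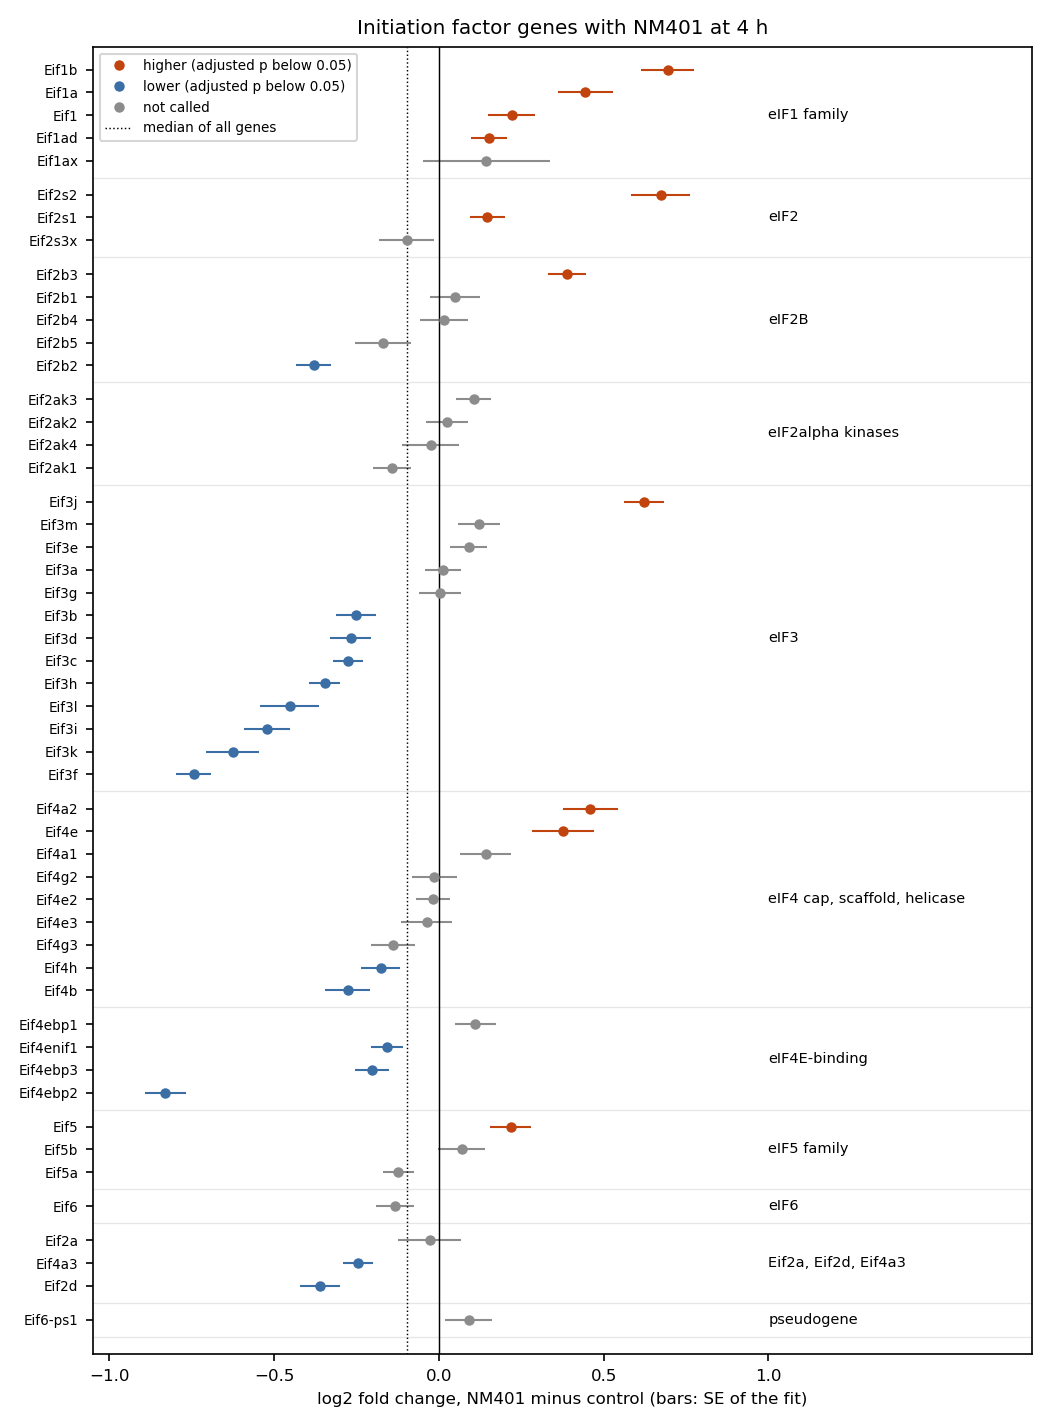
Log2 fold change, NM401 minus control (horizontal axis, points with SE of the fit), for the 51 tested initiation factor genes, grouped down the page by complex. Red points were called higher, blue points lower and grey points not called, and the dotted line is the median of all genes at -0.10. The eIF1 and eIF2 genes lie mostly on the higher side, and most eIF3 genes on the lower side with Eif3j apart at 0.62.

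The eIF1 family keeps the scanning ribosome open until it meets a start codon. Of the 5 tested genes grouped here by name, 4 were called higher, against 21.9% of all genes, and none lower, with a median of 0.22. All 5 were above 0 under every scaling tried, but the smaller calls were fragile. With the mean of each gene's tested probes 3 were called higher, and Eif1ad was below 0 at -0.12. With the slide as a block 2 were called (Eif1 and Eif1b), with a replicate block 2, and with 1 array left out 2 or 3, with 2 without control replicate 1, 2 or 3 or without NM401 replicate 2 or 3. Eif1b, a close relative of Eif1, was at -0.65, -0.66, -0.59 and -0.71 in NM401 replicates 1 to 4 and at -1.45, -1.29, -1.49 and -1.16 in control replicates 1 to 4. All 4 NM401 values lay above all 4 control values. The difference was 0.69 ± 0.08 (adjusted p = 0.000279), or 1.62-fold, and with the slide as a block 0.70 (adjusted p = 0.0102). Its probe lies at chr8:125500937-125501263 of rat build rn4, on both sides of an intron.

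Eif1a, which encodes a form of the eIF1A scanning factor, was at 0.66, 0.75, 0.52 and 0.85 with NM401 and at 0.14, 0.31, 0.21 and 0.34 in controls. The groups did not overlap and differed by 0.44 ± 0.08 (adjusted p = 0.00256), a call that the slide block ended (0.41, adjusted p = 0.0585). RefSeq named Eif1a through the accession of its dimmer probe, and the accession of the brightest probe was not matched. Eif1ad, a gene for an eIF1A domain protein, was at 1.48, 1.63, 1.63 and 1.61 with NM401 and at 1.40, 1.44, 1.47 and 1.42 in controls. These groups lay close together without overlap, at a difference of 0.15 ± 0.05 (adjusted p = 0.0408), and with the slide as a block the difference was 0.04 (adjusted p = 0.662). The dimmer probe of Eif1ad was called lower, at -0.40 (limma, adjusted p = 0.0036). Eif1 itself was called higher by 0.22 ± 0.07 (adjusted p = 0.0286) although its groups overlapped, and Eif1ax was at 0.14 (adjusted p = 0.548).

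Of the eIF2 subunits, 2 of 3 tested genes were called higher, against 21.9% of all genes. Only Eif2s2 kept its call when any 1 array was left out. Eif2s1 was called without NM401 replicate 3 and in none of the other leave-outs, which gave a count of 1. Eif2s2, the beta subunit, which binds eIF5 and eIF2B, was at 2.75, 2.83, 2.79 and 2.87 with NM401 and at 2.17, 2.21, 2.28 and 1.88 in controls. Every NM401 value was above every control value, with control replicate 4 the lowest. The difference of 0.67 ± 0.09 (adjusted p = 0.000522) was 1.59-fold, its 2 probes gave 0.67 and 0.69, and with the slide as a block it was 0.61 (adjusted p = 0.0206). Eif2s1, the alpha subunit that the stress kinases phosphorylate, was at 2.23, 2.17, 2.09 and 2.22 with NM401 and at 2.01, 2.07, 2.00 and 2.04 in controls. The lowest NM401 and the highest control value lay next to each other, and the difference of 0.15 ± 0.05 (adjusted p = 0.0404) was no longer called with the slide as a block (0.20, adjusted p = 0.101). Eif2s3x, the gamma subunit that carries GTP and the tRNA, was at -0.10 (adjusted p = 0.337), at 0.11 under median scaling (not called) and at -0.22 after normexp (called lower, adjusted p = 0.0216).

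Of the 5 subunits of the exchange factor eIF2B, which recharges eIF2 with GTP, 1 rose, 1 fell and 3 were not called. Over all genes 21.9% were called higher and 35.4% lower, so these counts do not set eIF2B apart. Eif2b3, the gamma subunit and part of the catalytic arm, was at -0.01, 0.10, 0.04 and -0.03 with NM401 and at -0.39, -0.30, -0.31 and -0.45 in controls. The groups lay apart by 0.39 ± 0.06 (adjusted p = 0.000819). Eif2b2, the beta subunit of the regulatory core, was at 2.59, 2.65, 2.62 and 2.62 with NM401 and at 2.91, 3.03, 2.98 and 3.07 in controls. All NM401 values were below all control values, by 0.38 on average (-0.38 ± 0.05, adjusted p = 0.000656). Both calls were kept with the slide as a block (Eif2b3 0.35, adjusted p = 0.0273, and Eif2b2 -0.41, adjusted p = 0.0131), and that of Eif2b2 was lost under median scaling (-0.18, adjusted p = 0.0695). Eif2b1 (0.05) and Eif2b4 (0.02) were not called. Eif2b5, the catalytic subunit, was not called at -0.17 (adjusted p = 0.119) but was called with the slide as a block at -0.40 (adjusted p = 0.0175).

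None of the 4 kinases of eIF2 alpha was called. They were Eif2ak1 (HRI, which senses haem and mitochondrial stress) at -0.14 with an adjusted p of 0.0667, Eif2ak2 (PKR, which senses double-stranded RNA) at 0.02, Eif2ak3 (PERK, which senses unfolded proteins in the endoplasmic reticulum) at 0.11 with an adjusted p of 0.118, and Eif2ak4 (GCN2, which senses uncharged tRNA) at -0.03. Under median scaling, which moved the median of all genes to 0.11, Eif2ak2 (0.23) and Eif2ak3 (0.31) were called higher. Without control replicate 4, Eif2ak1 was called lower (-0.18).

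The largest complex, eIF3, held 8 of the 16 initiation factor genes that fell. eIF3 is the scaffold on the small ribosomal subunit that holds the other factors and recruits the mRNA. Of its 13 subunit genes, 8 fell, 1 rose and 4 were not called, with a median of -0.27. The 8 that fell were Eif3b, Eif3c, Eif3d, Eif3f, Eif3h, Eif3i, Eif3k and Eif3l. All 8 stayed below 0 under every scaling tried, but under median scaling only 4 of them were still called (Eif3f, Eif3i, Eif3k and Eif3l). Relative to the median of all genes the eIF3 median was -0.17, and it was 0.014 after normexp background correction, where the median of all genes was -0.24.

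Eif3f, a subunit of the octamer core with a metalloprotease-like fold, was at 2.94, 2.96, 2.91 and 2.86 with NM401 and at 3.61, 3.61, 3.67 and 3.74 in controls. The 4 NM401 values lay in a narrow band well below the controls. The difference was -0.74 ± 0.05 (adjusted p = 5.10e-05), or 1.67-fold lower, and with the slide as a block -0.73 (adjusted p = 0.00327). Over every alternative run it ranged between -0.76 and -0.54, and it was called in each. Its probe, printed above, lies at chr1:166399426-166399485 in rn4.

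Eif3k, a small peripheral subunit, was at 3.73, 3.55, 3.52 and 3.48 with NM401 and at 4.24, 4.27, 4.03 and 4.24 in controls. NM401 replicate 1 was the highest of its group and control replicate 3 the lowest of the other, yet the groups did not overlap. The difference was -0.63 ± 0.08 (adjusted p = 0.000419), or 1.54-fold lower, and -0.46 with the slide as a block (adjusted p = 0.0177). Its 3 probes gave -0.69, -0.63 and -0.59 in the order of the transcript, although the last pair shares 48 bases and is not independent. Eif3l, the partner of Eif3k at the edge of the complex, was lower by -0.45 ± 0.09 (adjusted p = 0.00326), and that call was lost with the slide as a block (-0.30, adjusted p = 0.115).

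Eif3j went the other way. It encodes a loosely bound subunit that sits in the decoding centre and is not needed to hold the complex together. It was at 0.17, 0.01, 0.07 and 0.11 with NM401 and at -0.49, -0.47, -0.54 and -0.63 in controls. The groups were widely separated, with a difference of 0.62 ± 0.06 (adjusted p = 0.000134), or 1.54-fold higher, which was 0.70 with the slide as a block (adjusted p = 0.00403). Over every alternative run it ranged between 0.59 and 0.83 and was called in each. Its second probe gave 0.96. The printed probe spans an intron, at chr3:108835714-108836926 in rn4.

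By position in the complex, a grouping made after the values were seen, 5 of the 8 octamer genes fell (Eif3c, Eif3f, Eif3h, Eif3k and Eif3l) and 3 were not called (Eif3a, Eif3e and Eif3m). The share called lower over all genes was 35.4%. Of the b, g and i module, which reaches to the mRNA entry site, Eif3b and Eif3i fell and Eif3g was not called. Eif3d, the subunit known to bind the cap of some mRNAs, fell by 0.27 on the log2 scale (adjusted p = 0.00745). Eif3h (-0.35 ± 0.05), Eif3c (-0.28 ± 0.04) and Eif3b (-0.25 ± 0.06) were close to it in size. With the slide as a block these 4 stayed called, Eif3d at -0.38 (adjusted p = 0.0186), Eif3h at -0.37 (0.0116), Eif3c at -0.30 (0.0204) and Eif3b at -0.39 (0.00855), as did Eif3i at -0.54 (0.0143). Eif3a, the largest subunit and the backbone of the octamer, was at 0.01 ± 0.05, and Eif3g at 0.00 ± 0.06. Eif3m was not called at 0.12 (adjusted p = 0.14) and Eif3e at 0.09 (adjusted p = 0.207), although both were called higher under quantile normalisation and under median scaling. Eif3a was also called higher under median scaling, at 0.22.

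**Figure D2:**
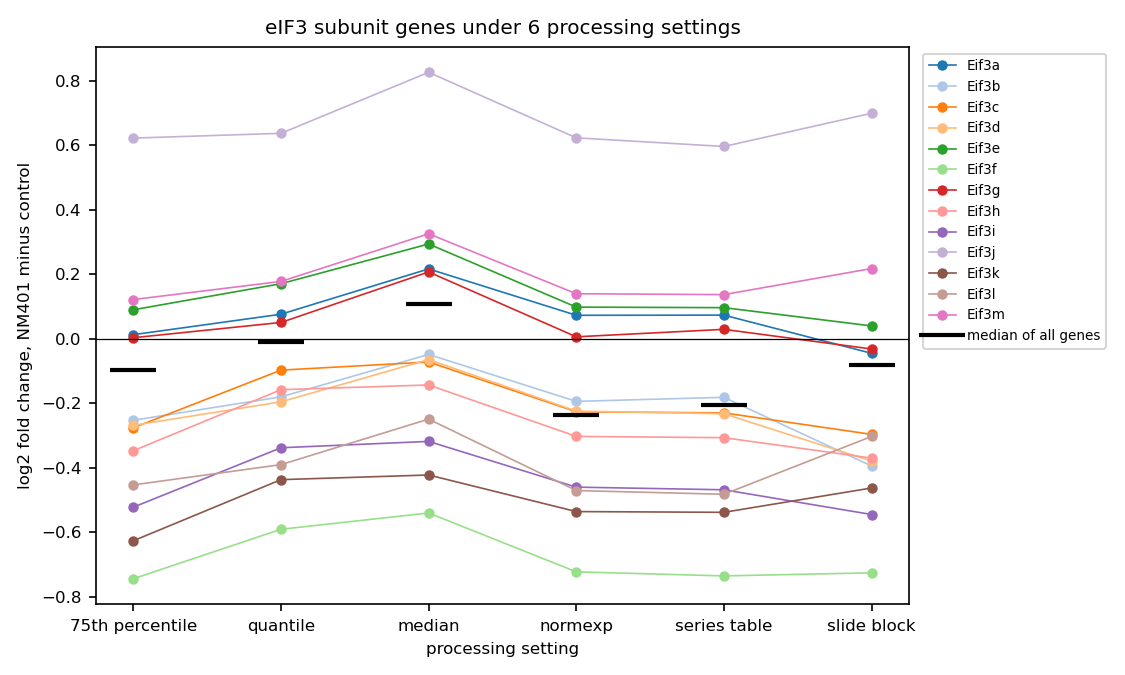
Log2 fold change, NM401 minus control (vertical axis), for the 13 eIF3 genes under 6 ways of processing the arrays (horizontal axis), 1 line a gene, with the median of all genes as a black bar. Eif3f is the lowest and Eif3j the highest under each of the 6. The whole set moves up under median scaling, where the black bar is at 0.11, and the bar moves down to -0.24 after normexp.

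Of the 9 tested cap-binding, scaffold and helicase genes of eIF4, 2 were called higher, 2 lower and 5 were not called. These counts do not stand out from the shares of all genes, 21.9% higher and 35.4% lower. The count lower was 1 when any array but control replicate 1 or NM401 replicate 4 was left out, and with the slide as a block none was called in either direction. Eif4a2, a helicase that unwinds mRNA leaders, was at 1.33, 1.62, 1.58 and 1.61 with NM401 and at 1.13, 1.15, 0.95 and 1.07 in controls. NM401 replicate 1 lay between the other 3 and the controls. The difference of 0.46 ± 0.08 (adjusted p = 0.00223) dropped to 0.25 with the slide as a block (adjusted p = 0.0829), a fit in which the difference comes from replicate 1 alone. Its paralogue Eif4a1, usually the main helicase, was not called at 0.14 (adjusted p = 0.148).

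Eif4e, the cap-binding protein itself, was at -1.74, -1.77, -1.77 and -1.81 with NM401 and at -2.19, -1.88, -2.21 and -2.33 in controls. The NM401 arrays agreed closely, and control replicate 2 came nearest to them. The difference was 0.38 ± 0.09 (adjusted p = 0.00976), and 0.41 with the slide as a block (adjusted p = 0.0848). All 3 Eif4e probes were called higher, with 0.59, 0.38 and 0.30 in the order of the transcript. Eif4b, a cofactor that stimulates the helicase, was at 2.45, 2.31, 2.22 and 2.29 with NM401 and at 2.64, 2.69, 2.56 and 2.50 in controls. Its groups came close to each other, at -0.28 ± 0.07 (adjusted p = 0.00978), and with the slide as a block the difference was -0.15 (adjusted p = 0.272). Eif4h, a related cofactor, was called lower by 0.18 (-0.18 ± 0.06, adjusted p = 0.0316), and its value was 0.027 under median scaling and -0.03 under quantile normalisation, not called in either. With the slide as a block it was -0.24 (adjusted p = 0.0876), and the call was also lost after normexp and in 6 of the 8 leave-outs. Eif4e2 (-0.02), Eif4e3 (-0.04), Eif4g2 (-0.01) and Eif4g3 (-0.14) were not called. Eif4g1, the main scaffold, carries no Eif name on the array but is named in the description of 1 probe, which was at 3.27 ± 0.10 with NM401 and 3.36 ± 0.06 in controls (SD, n = 4 each; limma, -0.10, adjusted p = 0.227).

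Among the proteins that bind eIF4E and hold it back, 3 of 4 genes were called lower, against 35.4% of all genes. Eif4ebp2, a 4E-binding protein that mTOR inactivates, had the largest difference of the 51 initiation factor genes under the 75th percentile scaling, though not under median scaling or with the mean of a gene's probes. It was at -0.75, -0.71, -0.91 and -0.75 with NM401 and at 0.10, 0.10, 0.03 and -0.04 in controls. The groups were far apart compared with the spread within each. The difference was -0.83 ± 0.06 (adjusted p = 6.24e-05), or 1.78-fold lower, and -0.80 with the slide as a block (adjusted p = 0.00397). It ranged between -0.86 and -0.63 over every alternative run and was called in each. Its only probe lies at chr20:29562673-29562732 in rn4.

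Eif4ebp3, a further 4E-binding protein, was at -1.41, -1.32, -1.34 and -1.38 with NM401 and at -1.15, -1.11, -1.23 and -1.14 in controls. Its groups did not overlap and differed by -0.20 ± 0.05 (adjusted p = 0.00964). Eif4enif1, the 4E-transporter that carries eIF4E into the nucleus, was at -1.01, -0.97, -1.06 and -1.07 with NM401 and at -0.85, -0.86, -0.91 and -0.85 in controls. That was a small but separate shift of -0.16 ± 0.05 (adjusted p = 0.0227). Under median scaling both genes were just above 0 (Eif4ebp3 0.00080 and Eif4enif1 0.046), and neither was called with the slide as a block (adjusted p = 0.0503 and 0.194). Eif4ebp1, the 4E-binding protein studied most, was not called at 0.11 (adjusted p = 0.159), although it was called higher under quantile normalisation (0.28) and median scaling (0.31).

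**Figure D3:**
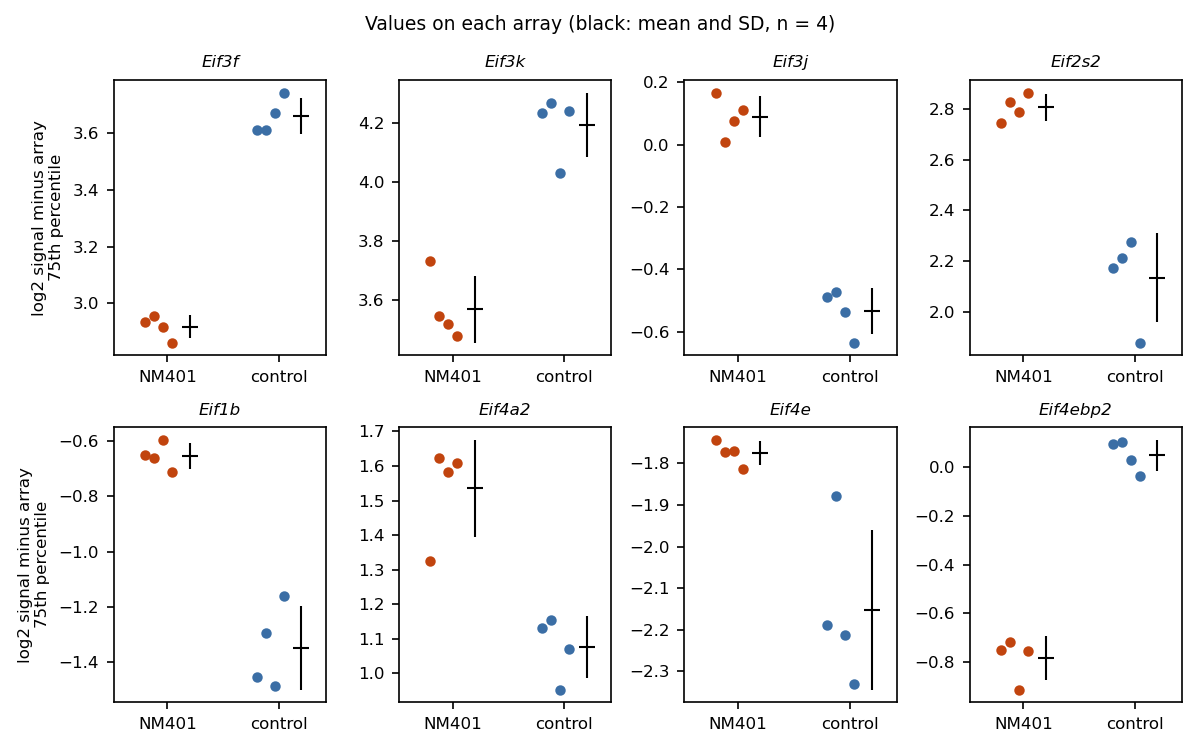
Log2 signal minus the array's 75th percentile (vertical axes, which differ between panels and do not start at 0) on each of the 4 NM401 arrays (red, left) and 4 control arrays (blue, right) for 8 genes, with the mean and SD in black. NM401 values lie below all controls for Eif3f, Eif3k and Eif4ebp2 and above all controls for Eif3j, Eif2s2, Eif1b, Eif4a2 and Eif4e.

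Eif5, the factor that makes eIF2 hydrolyse its GTP at the start codon, was at 3.77, 3.73, 3.68 and 3.78 with NM401 and at 3.48, 3.42, 3.55 and 3.64 in controls. The highest control reached almost to the lowest NM401 value, and the difference by the brightest probe was 0.22 ± 0.06 (adjusted p = 0.0176) and 0.25 with the slide as a block (adjusted p = 0.0963). The call was also lost without NM401 replicate 4. Eif5b, which joins the ribosomal subunits, was not called at 0.07. Eif5a, better known for helping elongation past difficult peptide bonds, just missed the threshold at -0.12 ± 0.05 (adjusted p = 0.0502) with groups that did not overlap, and under quantile normalisation it was called higher at 0.14. Eif6, which keeps the large subunit from joining too early, was at -0.13 (adjusted p = 0.0812), and the pseudogene Eif6-ps1 at 0.09 (adjusted p = 0.302). An Eif6 probe is placed in rn4 on chromosome 14 beside the pseudogene, while RefSeq has the gene on chromosome 3, so signals of the 2 cannot be told apart there.

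Of the 3 remaining genes with an Eif symbol, 2 fell, against 35.4% of all genes. Eif2d, which can deliver tRNA without GTP and takes part in recycling, was at 1.57, 1.63, 1.58 and 1.60 with NM401 and at 1.88, 2.02, 1.88 and 2.06 in controls. The NM401 values were tight and all below the controls, by -0.36 ± 0.06 (adjusted p = 0.00141), and by -0.39 with the slide as a block (adjusted p = 0.0235), but its second, dim probe gave 0.28 and was not called. Eif4a3, the helicase of the exon junction complex, was at 3.16, 3.12, 3.12 and 3.08 with NM401 and at 3.36, 3.40, 3.35 and 3.35 in controls. Its groups lay apart by -0.24 ± 0.05 (adjusted p = 0.00246), and with the slide as a block it was at -0.21 (adjusted p = 0.0611). Under median scaling neither was called (Eif2d -0.16 and Eif4a3 -0.04). Eif2a, an alternative tRNA carrier, was at -0.03.

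How far a gene appeared to change depended on which of its probes was read. Of the 78 tested probes, 22 were called higher and 21 lower, against 22.1% higher and 34.1% lower, 56.2% in all, of all tested probes, and 20 genes had several tested probes. All 5 Eif5 probes were called higher, with 0.79, 0.37, 0.74, 0.58 and 0.22 at bases 1042, 1397, 1457, 2538 and 3287. The brightest probe, nearest the 3′ end, thus gave the smallest of the 5 differences. Eif1a gave 1.06 at base 1769 and 0.44 at base 2784, and Eif3j gave 0.62 at base 642 and 0.96 at base 1348. Eif3i gave -0.52 at base 856 and -1.38 at base 1035, the widest gap among genes whose probes were all called. The array files place both Eif3i probes on chromosome 2 of rn4, at different loci, while RefSeq has the gene on chromosome 5, and whether a related copy adds to either signal was not tested. Eif1ad was the only gene with opposite calls, at 0.15 for base 945 and -0.40 for base 2438 (adjusted p = 0.0036), against 5.67% of all 3313 genes with several tested probes.

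The gap between the first and the last tested probe was compared between groups for these 20 genes, a test added after the values were seen. In 7 genes (Eif1a, Eif1ad, Eif3i, Eif3j, Eif4a1, Eif4b and Eif5) the 4 NM401 gaps and the 4 control gaps did not overlap, with an exact permutation p of 0.0286 (two-sided), the smallest possible with 4 against 4. The gap was not compared in other genes with several tested probes, so the share to set beside these 7 is not known. After Benjamini-Hochberg adjustment over the 20 genes the smallest p was 0.0816, and none was below the threshold. The last probe was the lower of the pair, relative to controls, in 5 of the 7 genes and the higher in 2 (Eif3j and Eif4a1). In Eif4a1 the probes gave -0.15 and 0.14, and neither was called. Over all genes with several tested probes, the median range between probes was 0.24.

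**Figure D4:**
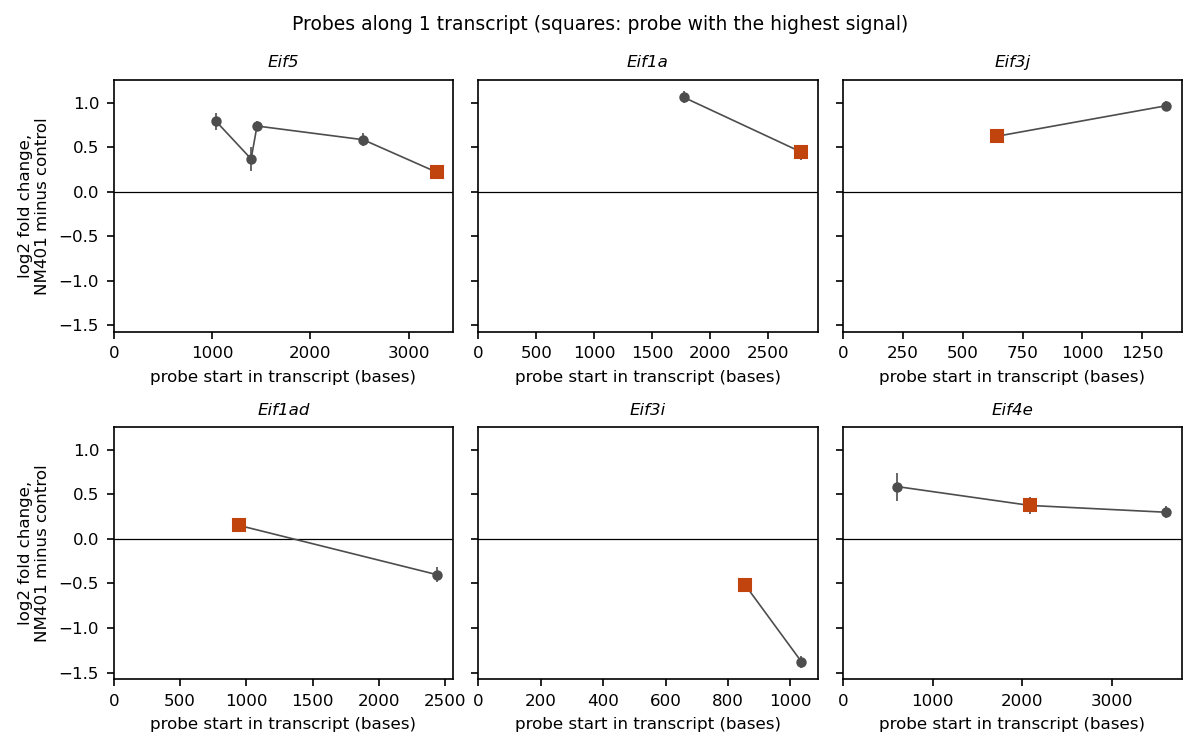
Log2 fold change, NM401 minus control (vertical axis, points with SE of the fit), against the base at which each tested probe starts (horizontal axes, which differ between panels) for 6 genes, with the brightest probe as a square. Eif5 shows 5 probes above 0 with the lowest at the far end, and the Eif1ad probes lie on opposite sides of 0.

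Other genes of translation were read from lists of their own, under the 75th percentile scaling alone, with values as mean ± SD (n = 4 each). Beside each count stand the shares of all 17424 genes, 21.9% called higher and 35.4% lower. Of 12 regulators at the cap and the poly(A) tail, 3 rose, 4 fell and 5 were not called (median -0.12). Mknk2, a kinase that phosphorylates eIF4E, was at 2.55 ± 0.11 with NM401 and 3.42 ± 0.05 in controls, lower by -0.86 (adjusted p = 6.77e-05), and its relative Mknk1 was lower by -0.43 (adjusted p = 0.00122). Of 12 genes that link mTOR to translation, 3 rose, 5 fell and 4 were not called (median -0.13). Ddit4, an inhibitor of mTOR complex 1 that stress induces, was at -2.65 ± 0.09 with NM401 and -1.76 ± 0.08 in controls (-0.88, adjusted p = 6.58e-05). Rps6kb2, an S6 kinase, was higher by 0.46 (adjusted p = 0.000392). Of the other called genes, Mtor (-0.61), Sesn2 (-0.53), Rptor (-0.46) and Tsc2 (-0.36) were lower. Rps6kb1 (0.38) and Rheb (0.23) were higher.

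Of 8 tested genes around eIF2 phosphorylation, 2 rose, 2 fell and 4 were not called (median -0.09). Atf4, the transcription factor whose own mRNA is translated when eIF2 is phosphorylated, was at 4.22 ± 0.02 with NM401 and 3.64 ± 0.08 in controls (0.58, adjusted p = 0.00013). Gcn1, which activates GCN2 on stalled ribosomes, was at 2.62 ± 0.05 with NM401 and 3.42 ± 0.13 in controls (-0.80, adjusted p = 0.000116). Of 4 reinitiation and recycling genes, 3 rose and none fell (median 0.44), against 21.9% higher and 35.4% lower of all genes. Abce1, which splits ribosomes after termination, was at 0.78 ± 0.05 with NM401 and 0.22 ± 0.16 in controls (0.56, adjusted p = 0.000904). Mcts2 was higher by 0.74 (adjusted p = 0.000862) on a dim probe. It was at -5.83 ± 0.20 in controls, where only 3 arrays were well above background. Of 8 elongation genes, 4 fell and none rose (median -0.18), against the same shares of all genes, 35.4% lower and 21.9% higher. Eef2, the translocation factor, was at 4.05 ± 0.04 with NM401 and 4.71 ± 0.10 in controls (-0.65, adjusted p = 0.000133), and Eef1d was lower by -0.39 (adjusted p = 0.0028). Of the 2 termination genes, Etf1 rose by 0.22 (adjusted p = 0.0175) and Gspt1 was not called at -0.12 (adjusted p = 0.148).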

How the data were processed

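Total RNA of 8 cultures was labelled with Cy3 for Agilent 1-colour arrays, as the labels' protocols state. For each array the authors deposited a file of the intensity of every spot, written by Agilent Feature Extraction (version 11.0.1.1 per the file headers), in which the processed signal was background-subtracted and detrended within the array and not scaled between arrays. A deposited value matrix held the median pixel intensity of the same spots, equal for 503808 of 503808 values compared, and served as an alternative. Probe positions are rn4, per the file headers. The files hold signals and no counts, so the number of arrays, 4 a group, limits the precision.

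From these, log2 of the processed signal minus the array's 75th percentile over the 58717 spots that are not controls was computed. Outlier-marked spots were removed, the remaining spots of each probe averaged, and 47 probes with no usable spot on an array were dropped. Tests ran on probes that were well above background on 4 or more arrays, by lmFit and eBayes of limma 3.58.1 (two-sided, R 4.3.3, with data.table, version 1.17.8, for reading), with no covariate, and adjusted by Benjamini-Hochberg over all of them. The fit was tested on simulated data. A RefSeq gene list (GRCr8, used for names and promoters) matched 68 of the 82 member probes. Values on every array are given for up to 3 genes per complex with the smallest adjusted p among called genes whose groups did not overlap. Other translation lists name the 2 genes with the smallest adjusted p, and the mTOR list names all its called genes. The members, complexes and lists were chosen with earlier results of these data known. Samples with the same replicate number did not deviate together throughout, so the numbers were not taken as pairs. Alternatives were normexp (offset 50) on the mean and local background signals, quantile normalisation, median scaling, no filter and a filter on all 8 arrays, the mean of a gene's probes, the slide as a block or slide 1 alone, the replicate block, the value matrix, and each replicate left out. A count was taken as moved beyond 1.5 times, and a gene that was never called has no direction to lose.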

Additional observations from a re-analysis of the deposited data

Results flagged for a closer look

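In 7 of 102 groups of 4 values, 1 array stood apart from the other 3 by Dixon's ratio of gap to range, beyond the critical value for 4 values. Chance gives about 1 in 20 such groups, so a few of these are what chance alone would give. In Eif1ad with NM401 (ratio 0.852), replicate 1 was at 1.48 and the others at 1.61 to 1.63. In Eif4a2 with NM401 (ratio 0.866), replicate 1 was at 1.33 and the others at 1.58 to 1.62. These 2 low values are those of the only NM401 array that shared the slide of the controls. In Eif2b4 with NM401 (ratio 0.885), replicate 3 was at -1.75 and the others at -1.93 to -1.91. In Eif6-ps1 with NM401 (ratio 0.87), replicate 3 was at 0.78 and the others at 0.70 to 0.71. In Eif3k in controls (ratio 0.856), replicate 3 was at 4.03 and the others at 4.24 to 4.27. In Eif4enif1 in controls (ratio 0.87), replicate 3 was at -0.91 and the others at -0.86 to -0.85. In Eif3h in controls (ratio 0.873), replicate 1 was at 3.88 and the others at 3.96 to 3.97.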

How the results depend on the processing

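Of the 27 called initiation factor genes, 8 (Eif1b, Eif2b3, Eif2s2, Eif3f, Eif3i, Eif3j, Eif3k and Eif4ebp2) kept their call and direction under every alternative but slide 1 alone, which holds a single NM401 array. With that fit included they were 3 (Eif3f, Eif3j and Eif4ebp2). The count of genes called higher, 11, was 21 under median scaling, 7 with no filter on dim probes, 5 with the slide as a block and 1 within slide 1. The count called lower, 16, was 5 under median scaling and 2 within slide 1, where 24 of the 27 calls were lost with 1 NM401 array left. Leaving out each replicate in turn gave 8 to 9 higher and 14 to 16 lower. With a replicate block the counts were 8 and 15, and Eif1, Eif1ad, Eif2s1 and Eif4enif1 lost their calls. Deviations of same-numbered samples correlated at 0.19, -0.00, 0.08 and -0.07, so this pairing has little support in the data, and the block changed no other call among these genes. Relative to all genes, the eIF3 median of -0.17 was 0.014 after normexp, 0.12 with no filter and -0.023 with the series table. The eIF4 median of 0.08 was 0.27, 0.37 and 0.25 in those settings. The eIF2B median of 0.11 was 0.043 under quantile normalisation and with the slide as a block, 0.044 within slide 1, and 0.41 with no filter. With no filter the median of all 36276 genes fell to -0.39, which moved these relative values. With replicates left out the medians ranged between -0.19 and -0.14 for eIF3, 0.06 and 0.11 for eIF4 and 0.07 and 0.16 for eIF2B. Reversed in sign where called in either fit were Eif4g2 (0.27) and Eif5a (0.14) under quantile normalisation, Eif4h (0.027), Eif4ebp3 (0.00080) and Eif4enif1 (0.046) under median scaling, and Eif1ad (-0.12) with the mean of its probes. For other changes the cause was not tested. Signal over background set no limit for the 51 genes, and cross-hybridisation between paralogues was not tested.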

Other observations

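The precision of a single array can be read from the 18 initiation factor probes that were printed at 10 spots each. Their log2 values had a median SD within an array of 0.051, between 0.019 and 0.124. This is the scatter of repeat spots and says nothing of the spread between cultures. Between arrays, the correlation of all tested probes was 0.991 to 0.996 among NM401 arrays, 0.989 to 0.996 among control arrays and 0.966 to 0.983 between the groups, as a description.

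A few values belong in no comparison of the report. The probe for Eif2ak3 nearer the 5′ end gave 0.41 (limma, adjusted p = 0.058), while the brighter one gave 0.11. The probes described as Eif4e1b, a germline relative of Eif4e, were not well above background on any array.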
